A study of Mus musculus with 6 samples.

Results

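The genes of the cytosolic ribosomal proteins were examined in embryonic mouse hearts labelled as cardiomyocyte knockouts of the mitochondrial ribosomal protein gene Mrps5 and in their controls. A member was any gene labelled protein coding whose symbol begins with Rpl or Rps and a digit, or that is Rplp0, Rplp1, Rplp2 or Rpsa, while the Rps6k kinases were left out. The rule found 97 genes among the 26199 in the table, with 233 of its 60776 transcripts, and it used names only, no measured value. The members comprised 46 core proteins of the large subunit, 31 core proteins of the small subunit, 8 paralogues of core proteins and 11 copies whose symbol carries the suffix -ps. The last member was Rps19bp1, which encodes a nucleolar protein that binds Rps19 and is not a ribosomal subunit.

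Hearts were collected at embryonic day 12 from littermates of 2 genotypes, Mrps5 fl/fl (ctrl, 3 libraries) and Mrps5 fl/fl; cTNT-Cre (cKO, 3 libraries), so that the floxed alleles were present in both groups and only the mutants carried Cre. Cre expression comes from the promoter of cardiac troponin T2, so the other cells of the heart keep Mrps5, and each library was made from pooled hearts. Ribosomal RNA had been removed before strand-specific sequencing. The values are FPKM, fragments normalized to transcript length and to the library's total, summed here over the transcripts of each gene. Read numbers cannot be had from them and sequencing depth is therefore unknown, and nothing in them tells fewer cells of a type from less RNA per cell.

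The cytosolic ribosome is built from ribosomal RNAs and about equal amounts of each ribosomal protein, in a small subunit that reads the mRNA and a large subunit that joins amino acids. It is encoded in the nucleus and is separate from the mitochondrial ribosome, to which the Mrps5 protein belongs. Messenger RNAs of its proteins are among the most abundant of a growing cell. Most start with a run of pyrimidines, the 5′ terminal oligopyrimidine (TOP) motif, through which the growth kinase mTORC1 and the binding protein Larp1 control their translation and stability.

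RefSeq start sequences on GRCm38.p6 were matched by symbol for 66 of the 97 members, with 78 windows of 300 bases, each running from 250 bases before the start. A C at the start followed by at least 4 pyrimidines stood in 14 of these windows (17.9%), against 2.51% of all 32851 windows and 0 of the 75 windows of mitochondrial ribosomal proteins. The windows depend on where RefSeq places the start, and a start placed a few bases away hides the run. The following 5 starts belong to members that were higher in the mutant hearts at an unadjusted p under 0.05, and show the run in capitals, with 10 bases before the start and 20 from it.
Rpl14, chr9:120571507-120571536, plus strand: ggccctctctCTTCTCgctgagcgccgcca
Rpl35, chr2:39005112-39005141, minus strand: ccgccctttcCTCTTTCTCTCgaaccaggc
Rplp2, chr7:141447641-141447670, plus strand: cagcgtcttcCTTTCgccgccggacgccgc
Rps6, chr4:86857348-86857377, minus strand: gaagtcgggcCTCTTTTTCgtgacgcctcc
Rps10, chr17:27635225-27635254, minus strand: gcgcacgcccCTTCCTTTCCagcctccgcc

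The annotated starts of 2 paralogues, Rpl22l1, the paralogue of Rpl22, and Rpl7l1, a paralogue of Rpl7 that acts in ribosome assembly, show windows without the run at the start, so no base is in capitals. In Rpl22l1 a pyrimidine run begins 1 base later, but with a T, while the run counted here begins with a C.
Rpl22l1, chr3:28805498-28805527, plus strand: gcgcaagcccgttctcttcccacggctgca
Rpl7l1, chr17:46782637-46782666, minus strand: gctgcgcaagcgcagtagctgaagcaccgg

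Among tested members with a window, the 14 with the run had a median log2 fold change of 0.22 and the 49 without it 0.17. The difference between these medians was not tested. Rps27 and Rps15a, which had lower means in the mutants, have the run. The only called members with a window and the run are those printed above. The called members Rpl12, Rpl13, Rpl27a, Rpl4, Rpl7a, Rps12, Rps23, Rps3 and Rpsa have a window without it at their annotated starts. Of other motifs searched in the whole window, the ETS site ACTTCCGG on either strand stood in 15.4% of member windows and 3.89% of all windows, and the YY1 site AAGATGGC on either strand in 10.3% and 2.75%. Each of these sites stood in 16.0% of the windows of mitochondrial ribosomal proteins. The letters TATAAA on the coding strand stood in 7.69% and 8.32%. Tested members with the YY1 site had a median log2 fold change of 0.02 (6 genes) against 0.18 without it (57), those with the ETS site 0.15 (12) against 0.18 (51), and those with TATAAA 0.09 (6) against 0.17 (57). These matches describe the letters in the windows and were not set against binding data.

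For 91 members FPKM reached 1 in 3 or more libraries, and these were compared with limma on log2(FPKM + 1) together with all 13262 genes that passed the same filter, each difference having a standard error (SE). Cytosolic ribosomal protein mRNAs were modestly higher in the mutant hearts: 82 of the 91 had a higher mean and 9 a lower one. Their median log2 fold change was 0.17, or 1.13-fold, with quartiles of 0.09 and 0.24, while the median over all genes was -0.02. At an unadjusted p under 0.05, 19 members (20.9%) were higher, where 5.58% of all genes were, and 0 were lower, where 9.43% of all genes were. No member passed Benjamini-Hochberg adjustment over all genes in limma, against 0.0829% of all genes (11 genes), and the smallest adjusted p of a member was 0.139. In 44 members all 3 mutant libraries lay above all 3 control libraries, where 7.74% of all genes did so, and in 0 members did they lie below, where 13.0% of all genes did. Members share libraries and regulation and are not independent of one another. The fold changes are on the log2(FPKM + 1) scale, which understates changes of low genes, and p-values measure the spread between the 3 libraries of each group.

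**Figure D1:**
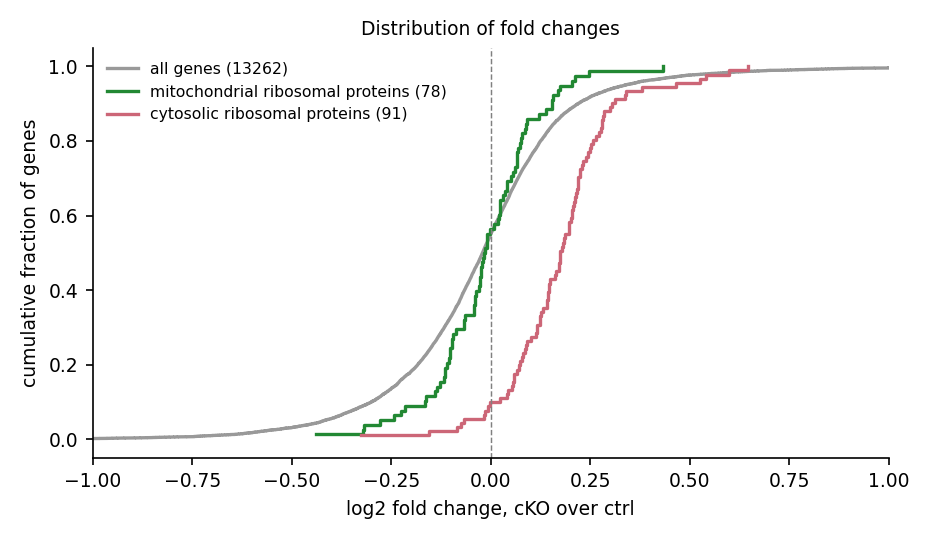
Cumulative fraction of genes (vertical axis) against the log2 fold change of mutant over control hearts (horizontal axis) for all 13262 genes tested, 78 mitochondrial ribosomal protein genes and 91 cytosolic ribosomal protein genes. The curve of the cytosolic proteins lies to the right, with a median of 0.17, while that of the mitochondrial proteins crosses the middle near 0, at -0.02.

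The fold changes of other abundant genes were centred near 0. Over the 599 other genes whose mean FPKM reached 75, the median log2 fold change was 0.01, with 46 higher and 68 lower at an unadjusted p under 0.05. The 78 mitochondrial ribosomal protein genes, Mrps5 itself among them, had a median of -0.02, with 34 higher and 44 lower. Of these, 3 were higher and 4 lower at an unadjusted p under 0.05. Their median turned to 0.01 when libraries were scaled by the median ratio of genes, a scaling under which the median of the cytosolic proteins was 0.20.

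The levels were examined library by library, as the difference of each member from its control mean on the log2 scale. The median over members was -0.09, 0.09 and 0.01 in ctrl replicates 1, 2 and 3. In cKO replicates 1, 2 and 3 it was 0.22, 0.15 and 0.15. All 3 mutant libraries were therefore above all controls, with a gap between ctrl replicate 2 and the nearest mutant libraries that was smaller than the spread among the controls. The single highest value of a member fell in cKO replicate 1 for 53 members, in cKO replicate 2 for 12 and in the library labelled cKO replicate 3 for 16. It fell in ctrl replicate 2 for 9 members, in ctrl replicate 3 for 1 and in ctrl replicate 1 for 0. The lowest value lay in ctrl replicate 1 for 69 of the 91 members, so that this library alone set the lower end of most comparisons.

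**Figure D2:**
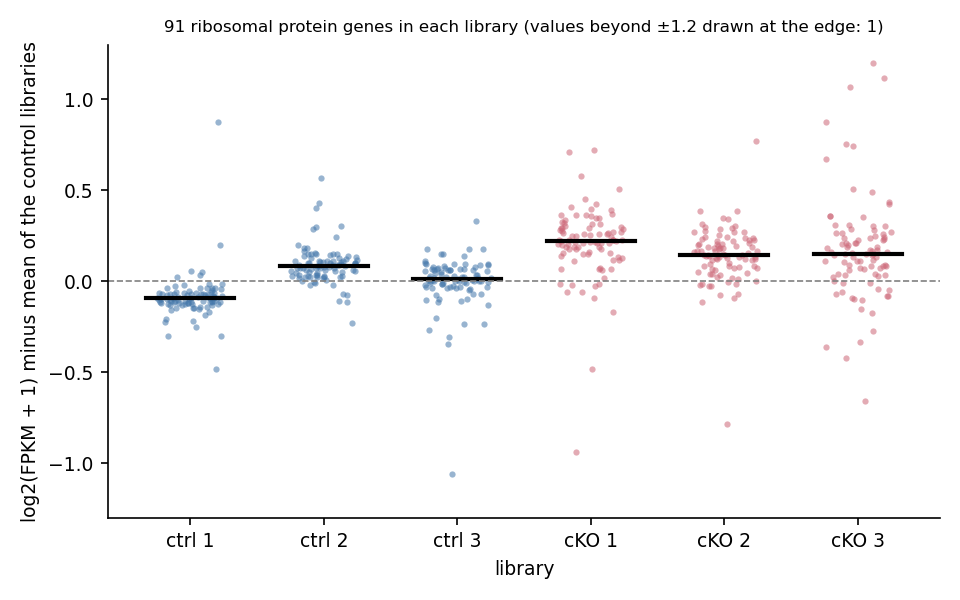
Each point is 1 of the 91 tested ribosomal protein genes, placed by library (horizontal axis) and by its log2(FPKM + 1) minus the mean of the 3 control libraries (vertical axis), with black bars at the medians. The medians of the mutant libraries lie between 0.15 and 0.22 and those of the control libraries between -0.09 and 0.09, and the points spread most widely in the library labelled cKO replicate 3, whose 1 value beyond 1.2 is drawn at the edge.

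The summed FPKM of all members was 36455, 40983 and 39186 in ctrl replicates 1, 2 and 3, and 45361, 42701 and 43569 in cKO replicates 1, 2 and 3. These sums did not overlap between the groups. As a share of all summed FPKM, the members made up 8.02%, 8.76% and 8.34% in the controls and 8.79%, 9.36% and 8.61% in the mutants, and on this scale the groups overlapped, because the share in the library labelled cKO replicate 3 was below that of ctrl replicate 2. Outside 17 erythroid marker genes and the 13 protein genes of mitochondrial DNA, the share was 11.2%, 12.1% and 11.4% in controls and 13.4%, 12.5% and 12.5% in mutants, again without overlap.

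Erythroid and cardiomyocyte markers and mitochondrial DNA genes differed between the libraries. Erythroid markers, the globins and other genes of red blood cells, made up 12.3%, 13.4% and 12.1% of all FPKM in the controls and 23.6%, 10.9% and 22.1% in cKO replicates 1, 2 and 3, so the groups overlapped. In cKO replicate 2, which had the lowest erythroid share of all libraries, the summed FPKM of ribosomal protein mRNAs was 42701, and the highest control sum was 40983. Of 17 erythroid genes tested 16 had a higher mean and 7 were higher at an unadjusted p under 0.05, the median log2 fold change being 0.62. Of 14 cardiomyocyte markers, all detected, 13 had a lower mean and 9 were lower at that threshold, with a median of -0.33, and their summed share was 2.81% to 3.37% in controls and 2.22% to 2.74% in mutants. Of the 13 protein genes of mitochondrial DNA, 11 had a lower mean and 7 were lower at an unadjusted p under 0.05, with a median of -0.46. Medians of the endothelial (8 genes), epicardial (5), mesenchymal (7) and macrophage (5) markers tested were -0.07, 0.08, 0.06 and -0.05. With the erythroid level as a covariate the median of the ribosomal proteins was 0.15, and 3 of 91 members (3.30%), Rpl29, Rps12 and Rpl7a, were higher at an unadjusted p under 0.05, a share below the 5.89% of all genes, while Rpl17 was lower. That fit has 1 residual degree of freedom less, and the part of cell makeup in the result was not tested further.

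**Figure D3:**
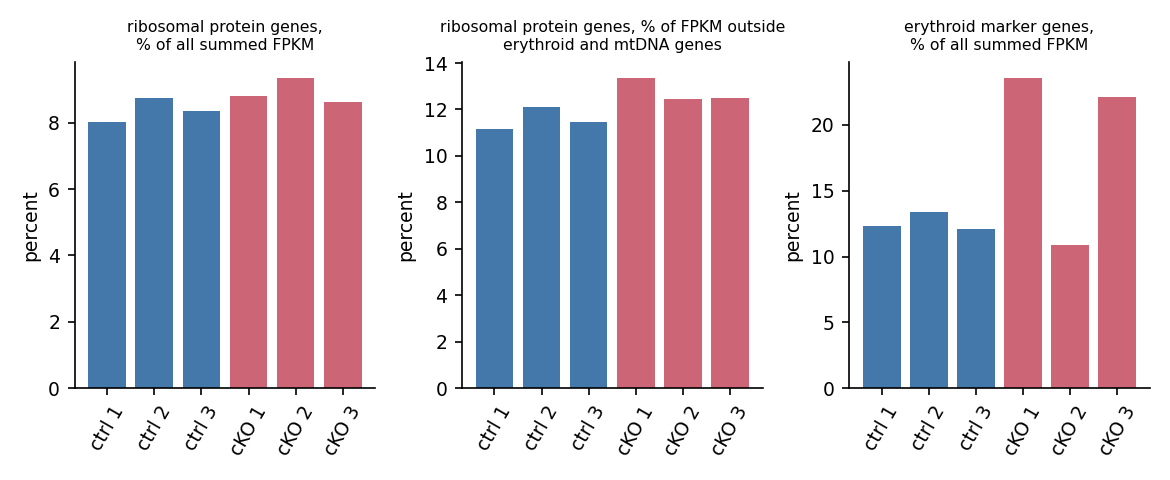
Percent of summed FPKM in each library (bars, from 0) held by ribosomal protein genes among all genes (left), by ribosomal protein genes outside erythroid and mitochondrial DNA genes (middle), and by erythroid marker genes (right). The middle panel separates controls (11.2% to 12.1%) from mutants (12.5% to 13.4%), while the erythroid share was high in cKO replicates 1 and 3 and lowest in cKO replicate 2.

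The labels were set against the targeted gene, although FPKM summed over transcripts does not separate those with and without the floxed exon. Mrps5 had an FPKM of 9.65, 11.4 and 10.4 in the controls and of 5.28, 7.41 and 10.4 in cKO replicates 1, 2 and 3. The third mutant value is within the control range, and where named alone it is called the library labelled cKO replicate 3. Mrps5 had a log2 fold change of -0.44 (SE 0.19) and a limma adjusted p of 0.339. Without the library labelled cKO replicate 3, 9 ribosomal protein genes were higher at an unadjusted p under 0.05, where 6.39% of all genes were. Single libraries of either group moved this count as much: it was 5 without ctrl replicate 1 (all genes 3.36%), 9 without ctrl replicate 3 (3.82%) and 7 without cKO replicate 1 (4.07%). The median log2 fold change was 0.13 without ctrl replicate 1 and 0.15 without cKO replicate 1, so the size of the shift moved less than the count. Under quantile normalization, which gives all libraries the same distribution, the median was 0.08, 70 members had a higher mean and 21 a lower one, and 7 were higher at an unadjusted p under 0.05, close to the 6.70% of all genes, while Rpl37a was lower.

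The core proteins of both subunits had shifts of like size. In the large subunit 42 of 46 genes had a higher mean, 12 were higher at an unadjusted p under 0.05 (all genes 5.58%) and 23 were higher with no overlap between the groups (all genes 7.74%), the median log2 fold change being 0.19. In the small subunit 28 of 31 had a higher mean, 6 were higher at that threshold and 20 had no overlap, with a median of 0.18. Mean FPKM, a level per length, ran from 108 to 1389 among large subunit genes with a median of 431, and from 82.0 to 1320 among small subunit genes with a median of 584.

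**Figure D4:**
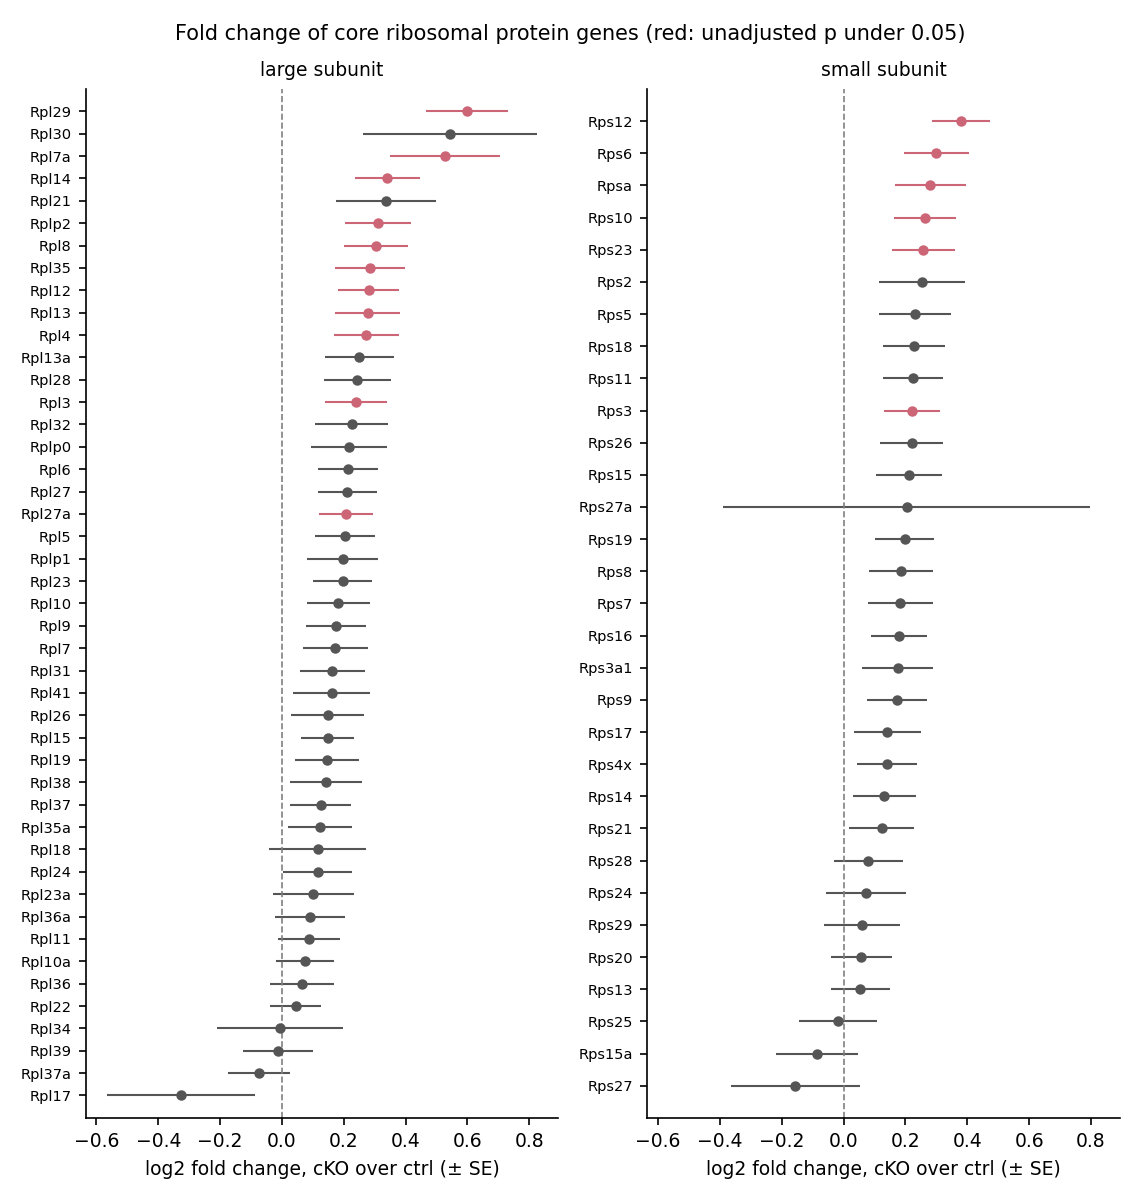
Log2 fold change of mutant over control hearts with its standard error (horizontal axis, bars) for 45 large subunit and 31 small subunit core genes, sorted by size, with red marking an unadjusted p under 0.05. Of these 76 genes, 69 lie to the right of 0, and the widest bar is that of Rps27a.

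Rpl29, a large subunit protein specific to eukaryotes, had an FPKM of 209, 251 and 238 in the controls and of 380, 295 and 388 in cKO replicates 1, 2 and 3. All mutant values were above all controls. The control mean was 233 ± 21.3 and the mutant mean 354 ± 51.6 (SD, n = 3 each), a log2 difference of 0.60 (SE 0.13, limma adjusted p = 0.139), and 0.40 (limma adjusted p = 0.353) with the erythroid level as a covariate. Without cKO replicate 2, which leaves the mutant libraries with the high erythroid shares, it was 0.73 (limma adjusted p = 0.0410), a fit in which 123 of 13115 genes passed adjustment against 11 in the fit of all libraries. The transcripts of Rpl29 exchanged places between libraries: ENSMUST00000150576 stood at 377 and 386 FPKM in cKO replicates 1 and 3 and at 0 in cKO replicate 2, where ENSMUST00000059802 stood at 177. These transcripts are 733 and 710 nt long in GENCODE M21. With the FPKM of the 4 transcripts that reached 20 FPKM multiplied by their lengths in kilobases, to undo the length scaling, the sums were 167, 181 and 178 in controls and 278, 223 and 285 in mutants, still with no overlap.

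Other large subunit genes were higher by smaller amounts. Rpl8, a conserved protein near the peptidyl transferase centre, had 520, 582 and 591 FPKM in controls and 688, 680 and 723 in mutants, with no overlap. Its log2 fold change was 0.31 (SE 0.10, limma adjusted p = 0.240). Rpl14, also of the large subunit, had 282, 340 and 316 FPKM in controls and 390, 377 and 419 in mutants. All mutant values were higher, with a log2 fold change of 0.34 (SE 0.11, limma adjusted p = 0.213). Rpl7a, a large subunit protein also known as Surf3, had 125, 102 and 136 FPKM in controls and 132, 205 and 192 in mutants, and the groups overlapped because cKO replicate 1 was at the control level. Its log2 fold change was 0.53 (SE 0.18, limma adjusted p = 0.236). Rpl3, a protein of the peptidyl transferase centre, had 436, 490 and 487 FPKM in controls and 533, 568 and 566 in mutants, a log2 fold change of 0.24 (SE 0.10, limma adjusted p = 0.317) with no overlap.

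The stalk proteins, which recruit elongation factors to the large subunit, were examined gene by gene. Rplp2 had 227, 232 and 276 FPKM in controls and 315, 283 and 313 in mutants, a log2 fold change of 0.31 (SE 0.11, limma adjusted p = 0.248). Rplp0, the base of the stalk, had 814, 913 and 954 in controls and 1094, 938 and 1085 in mutants, and Rplp1 had 692, 778 and 744 in controls and 918, 778 and 845 in mutants. For Rplp0 the groups overlapped, because cKO replicate 2 was below ctrl replicate 3. Neither Rplp0 (log2 fold change 0.22, SE 0.12) nor Rplp1 (0.20, SE 0.11) reached an unadjusted p under 0.05.

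Rpl5 and Rpl11 join the 5S ribosomal RNA and, when free, bind the p53 regulator Mdm2. Rpl5 had 300, 352 and 326 FPKM in controls and 368, 386 and 371 in mutants, with no overlap and a log2 fold change of 0.20 (SE 0.10). Rpl11 had 432, 476 and 496 in controls and 507, 479 and 504 in mutants, with a log2 fold change of 0.09 (SE 0.10). The Rpl11 groups overlapped. Rpl41, the smallest protein of the ribosome and the member with the highest mean level, had 1250, 1354 and 1324 FPKM in controls and 1611, 1346 and 1446 in mutants, overlapping in cKO replicate 2, with a log2 fold change of 0.16 (SE 0.12).

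In the small subunit, Rps6, the target of S6 kinase downstream of mTORC1, had 600, 695 and 648 FPKM in controls and 785, 803 and 800 in mutants. The mutant libraries were close to each other and above all controls, with a log2 fold change of 0.30 (SE 0.11, limma adjusted p = 0.254). Rpsa, also known as the laminin receptor precursor, had 539, 609 and 551 in controls and 730, 614 and 724 in mutants, where cKO replicate 2 lay only just above ctrl replicate 2. Its log2 fold change was 0.28 (SE 0.12, limma adjusted p = 0.313). Rps19, mutated in Diamond-Blackfan anaemia, had 298, 332 and 335 FPKM in controls and 376, 354 and 376 in mutants, a log2 fold change of 0.20 (SE 0.09) with no overlap. Rps4x, encoded on the X chromosome, had 590, 620 and 622 in controls and 697, 681 and 644 in mutants, a log2 fold change of 0.14 (SE 0.10), also with no overlap. Rps24, another gene of Diamond-Blackfan anaemia, had 1179, 1339 and 1340 in controls and 1436, 1418 and 1207 in mutants, with overlap and a log2 fold change of 0.07 (SE 0.13) that turned to -0.01 under quantile normalization.

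Several of these values moved with the processing. With the erythroid level as a covariate, the log2 fold change was 0.14 for Rpsa, 0.11 for Rplp0, 0.10 for Rplp1 and 0.07 for Rpl41. Under quantile normalization it was 0.17 for Rpl8, 0.14 for Rpl3, 0.21 for Rplp2, 0.11 for Rpl5, 0.12 for Rplp0 and 0.06 for Rplp1. In the same setting it was 0.15 for Rps6 and Rpsa, 0.12 for Rps19, 0.05 for Rpl41 and 0.01 for Rps4x. The covariate raised other values, to 0.73 for Rpl7a, 0.14 for Rps24, 0.23 for Rpl5 and 0.26 for Rpl3.

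Further called members, among them Rpl12, Rpl13, Rpl4, Rpl35 and Rpl27a of the large subunit and Rps10, Rps23 and Rps3 of the small subunit, had log2 fold changes between 0.21 and 0.28 and no overlap. Under quantile normalization the values of these named genes were smaller, from 0.09 for Rps3 to 0.18 for Rps10. In the opposite direction, Rpl17, which lines the peptide exit tunnel, had the lowest log2 fold change of all members, -0.33 (SE 0.24). Its FPKM was 183, 262 and 153 in controls and 192, 113 and 172 in mutants, so that the groups overlapped widely. Rps15a (-0.08, SE 0.13) and Rpl37a (-0.07, SE 0.10) lay within 1 SE of 0. Rps15a turned to 0.15 with the erythroid level as a covariate and to 0.14 on its most abundant transcript. These members were named after their values were seen.

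Members with longer transcripts tended to have larger fold changes by rank. Over the 77 core genes, the correlation of transcript length with the log2 fold change was 0.32 by Spearman and -0.06 by Pearson, and points share the same 6 libraries. The 26 with the shortest main transcripts (345 to 661 nt) had a median log2 fold change of 0.13 with 2 called at an unadjusted p under 0.05 (all genes 5.58%), and the 26 with the longest (975 to 5179 nt) had 0.21 with 8 called. The level itself had a Spearman correlation of -0.01 with the fold change. Whether fragment size selection plays a part in the values of short transcripts was not tested.

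The paralogues of core proteins had smaller differences. Of 8, 5 passed the filter and 4 had a higher mean, the median log2 fold change being 0.08. At an unadjusted p under 0.05, 0 were higher (all genes 5.58%) and 0 lower (all genes 9.43%). Free of overlap were 0 higher (all genes 7.74%) and 0 lower (all genes 13.0%). With 5 genes, counts of 0 cannot be told from these shares. Rpl22l1 had 67.2, 85.7 and 81.7 FPKM in controls and 78.7, 81.3 and 77.3 in mutants, a log2 fold change of 0.02 (SE 0.10), and its parent Rpl22 had 101, 115 and 104 in controls and 111, 110 and 109 in mutants (0.04, SE 0.08). Rps27l, a p53 target, had 147, 176 and 161 FPKM in controls and 176, 172 and 163 in mutants, a log2 fold change of 0.09 (SE 0.10). The difference between paralogues and core proteins was not tested.

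The tissue-restricted paralogues were at or near 0. Rpl3l, which replaces Rpl3 in postnatal heart and skeletal muscle, was between 0 and 0.267 FPKM in the 6 libraries, against 436 to 568 for Rpl3. Rpl39l, a paralogue of male germ cells, was between 0.0538 and 0.367 FPKM, while Rpl39 had 509, 594 and 588 in controls and 608, 536 and 531 in mutants, a log2 fold change of -0.01 (SE 0.11). Rpl10l, of the testis, was listed at 0 in 5 libraries. Together with Rpl36-ps4 and Rpl9-ps1, both listed at 0 in all libraries, and Rpl7a-ps3, these were the 6 members that did not pass the filter.

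Several members share nearly all of their sequence with a copy elsewhere, and their FPKM depend on how reads were divided. The main transcripts of Rps27, a small subunit zinc finger protein, and of Rps27rt, its retrocopy, were identical over all 341 aligned bases in the GENCODE M21 sequences. Their annotated starts have runs of 7 and 6 pyrimidines, and the bases shown after the run are the same in both.
Rps27, chr3:90213629-90213658, minus strand: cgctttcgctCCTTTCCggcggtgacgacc
Rps27rt, chr9:114982720-114982749, minus strand: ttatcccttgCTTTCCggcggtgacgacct
Rps27 had 842, 848 and 751 FPKM in controls and 939, 802 and 515 in mutants, and Rps27rt had 228, 394 and 360 in controls and 228, 417 and 539 in mutants. The low Rps27 value and the high Rps27rt value fell in the same library, that labelled cKO replicate 3. Their sum was 1070, 1242 and 1111 in controls and 1167, 1219 and 1054 in mutants, a log2 difference of 0.01, so neither the lower Rps27 (-0.16, SE 0.21) nor the higher Rps27rt (0.22, SE 0.32) was seen in the sum. Without the library labelled cKO replicate 3, the log2 fold change of Rps27 was 0.09.

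Rps12, a small subunit protein, was among the called members but is also identical to its copy Rps12-ps3 over 494 bases. Rps12 had 235, 247 and 255 FPKM in controls and 316, 299 and 345 in mutants, with no overlap and a log2 fold change of 0.38 (SE 0.09, limma adjusted p = 0.161). Rps12-ps3 had 543, 585 and 541 in controls and 746, 628 and 416 in mutants, highest in cKO replicate 1 and lowest in the library labelled cKO replicate 3. The sum of both was 778, 832 and 797 in controls and 1062, 927 and 761 in mutants, which overlapped, and it differed by 0.18 on the log2 scale (limma adjusted p = 0.589). The value of Rps12 alone is therefore uncertain.

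Of the 11 -ps copies 8 were tested, the median log2 fold change being 0.14, and 1 was called (all genes 5.58%). Rpl27-ps3, identical to Rpl27 over 411 bases, had 7.61, 9.10 and 7.67 FPKM in controls and 12.6, 10.2 and 18.1 in mutants, a log2 fold change of 0.65 (SE 0.18, limma adjusted p = 0.186) that was 0.34 with the erythroid level as a covariate. Nearly all of the pair's level came from Rpl27, and their sum was 318, 364 and 340 in controls and 413, 393 and 390 in mutants, a log2 difference of 0.23 with no overlap. Rpl7a and its copy Rpl7a-ps5, 98.9% identical, had a sum of 156, 140 and 163 in controls and 164, 235 and 222 in mutants, a log2 difference of 0.42. The lowest tested members were also copies: Rpl13a-ps1 had a mean FPKM of 1.37 ± 0.459 (SD, n = 3) in controls and 1.65 ± 0.294 in mutants, Rps2-ps6 of 2.37 ± 0.880 and 2.66 ± 0.926, and Rpl10-ps3 of 5.76 ± 1.01 and 6.83 ± 1.62. None of these 3 was called.

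**Figure D5:**
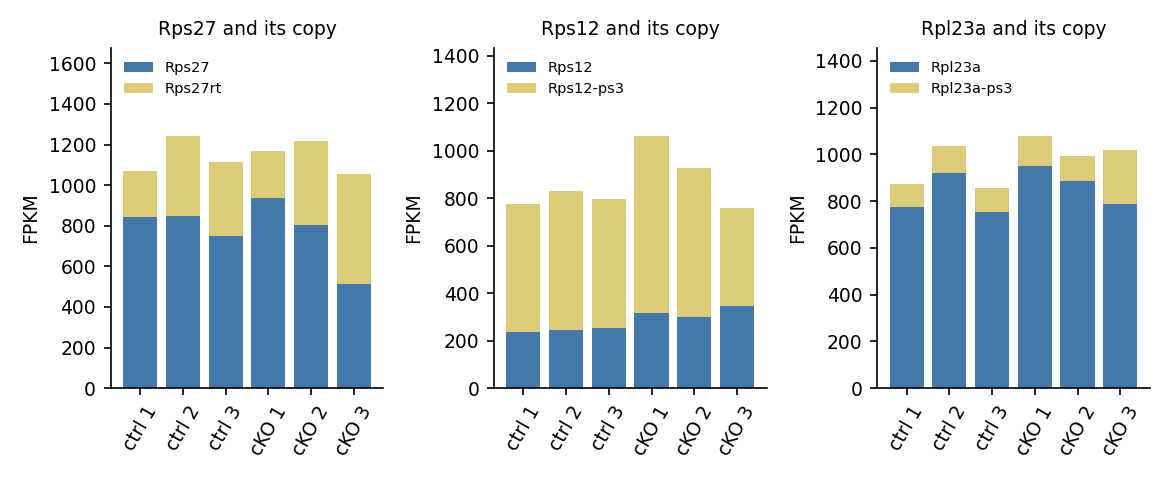
FPKM in each library (stacked bars, from 0) of Rps27 with Rps27rt, Rps12 with Rps12-ps3, and Rpl23a with Rpl23a-ps3, each pair near or fully identical in sequence. In the library labelled cKO replicate 3 the Rps27 part was 515 and the Rps27rt part 539, while their sum of 1054 was near that of ctrl replicate 1 at 1070.

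Some members could not be measured well. Rps27a, which encodes ubiquitin fused to a small subunit protein, had 534, 330 and 139 FPKM in controls and 151, 368 and 672 in mutants, a spread within groups of 1.03 on the log2 scale where the median core gene had 0.10. Its transcript ENSMUST00000102844 stood at 292 and 433 FPKM in ctrl replicate 1 and the library labelled cKO replicate 3 and between 0 and 5.40 in the other libraries. In all, 6 members had a transcript whose share of the gene moved by more than 50 percentage points between libraries (Rpl29, Rpl10, Rps27a, Rpl39l, Rps2 and Rpl21), and 9 tested members had a spread within groups above 0.3.

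Genes that act with the ribosomal proteins were counted from lists. Of 86 ribosome biogenesis factors tested, 77 had a higher mean, and 14 (16.3%) were higher and 0 lower at an unadjusted p under 0.05, where 5.58% and 9.43% of all genes were, the median log2 fold change being 0.11. Rrp9, a protein of the U3 particle that processes ribosomal RNA, had a log2 fold change of 0.37 (SE 0.09, limma adjusted p = 0.148). Ppan and Bysl, assembly factors of the large and small subunits, had 0.39 (SE 0.09) and 0.36 (SE 0.09). Of 41 translation factors 33 had a higher mean, and 10 (24.4%) were higher and 2 (4.88%) lower at that threshold, with a median of 0.13. Among them the initiation factor subunit gene Eif3c had 68.4, 80.1 and 76.3 FPKM in controls and 126, 127 and 94.6 in mutants, a log2 fold change of 0.61 (SE 0.13, limma adjusted p = 0.130). Eif3g had 0.31 (SE 0.08).

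Of 17 other mRNAs known to start with the TOP motif, 15 had a higher mean and 5 (29.4%) were higher at an unadjusted p under 0.05, the median log2 fold change being 0.16, near that of the ribosomal proteins. Some of them are also translation factors. Eef2, which moves the ribosome along the mRNA, had 445, 480 and 507 FPKM in controls and 634, 630 and 619 in mutants, with no overlap and a log2 fold change of 0.40 (SE 0.10, limma adjusted p = 0.161). Pabpc1, the poly(A) binding protein, had 416, 464 and 468 in controls and 664, 518 and 686 in mutants (0.46, SE 0.13), and Eif3f had 0.28 (SE 0.08).

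Of 26 genes of mTORC1 and the control of ribosomal protein mRNAs tested, 6 (23.1%) were higher and 3 (11.5%) lower at an unadjusted p under 0.05, where 5.58% and 9.43% of all genes were, with a median of 0.01. Sesn2, an inhibitor of mTORC1 that senses leucine, had 2.77, 3.18 and 2.49 FPKM in controls and 10.9, 9.43 and 4.95 in mutants, a log2 fold change of 1.25 (SE 0.24, limma adjusted p = 0.106). Larp1 had 35.2, 40.3 and 33.6 in controls and 49.0, 46.0 and 54.5 in mutants (0.44, SE 0.10, limma adjusted p = 0.142). Myc, which drives transcription of ribosome genes, had 8.56, 12.4 and 8.99 in controls and 13.8, 17.1 and 15.1 in mutants (0.58, SE 0.14, limma adjusted p = 0.160). For each of these 3 genes all mutant libraries were above all controls, Sesn2 least so in the library labelled cKO replicate 3. Outside the rule stands Fau, which encodes a small subunit protein made as a ubiquitin-like fusion, with a log2 fold change of 0.17 (SE 0.09).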

How the data were processed

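The authors deposited 1 table of FPKM per transcript and library for 3 ctrl and 3 cKO pools of embryonic hearts. The submitters' processing notes name Bowtie2 2.2.8, HISAT2, StringTie 1.3.1, Cuffdiff 2.1.1 and mm9, without role or order, and the annotation release was not given in the sources used here. FPKM were summed per gene identifier, and genes with FPKM of at least 1 in at least 3 libraries were fitted on log2(FPKM + 1) with limma 3.58.1 (lmFit and eBayes with trend, R 4.3.3) and Benjamini-Hochberg adjustment over all genes. The pipeline was tested on simulated data. Depth is unknown, so no counting interval is given. Copies were aligned with Biopython 1.88 on GENCODE M21 transcripts, and starts came from RefSeq (GRCm38.p6), a later build than the notes name. Members, lists and tests were chosen with earlier results of these data known. Named genes were the 8 called members with the largest rise or fall, the 3 highest and 3 lowest members by mean FPKM, a set chosen by function, and up to 3 genes by smallest p in each comparison list. Some items are not reported here by name, and the plot of core genes leaves out 1 of them.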

Additional observations from a re-analysis of the deposited data

How the results depend on the processing

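Of 18 alternatives, 0 turned the median of the members below 0. The count of 19 higher members at an unadjusted p under 0.05 was 7 under quantile normalization, with 1 lower, 70 higher and 21 lower means in place of 82 and 9, and a median log2 fold change of 0.081, and 3 with the erythroid level as a covariate, with 1 lower. Without a filter on low values 1 member, Rpl39l, was lower. Leaving out each library in turn gave 5 to 20 higher members, fewest without ctrl replicate 1 (5), cKO replicate 1 (7), ctrl replicate 3 (9) and the library labelled cKO replicate 3 (9), and 0 to 1 at the adjusted threshold, the 1 being Rpl29 without cKO replicate 2, where 123 of all genes passed. Without the library labelled cKO replicate 3, 261 of all genes and 0 members passed, against 11 of all genes with all libraries. Over all genes the split of 740 higher to 1251 lower became 550 to 1514 when libraries were scaled to equal totals outside erythroid and mitochondrial DNA genes, and 781 to 697 with the erythroid covariate. Among named members, small fold changes turned sign: Rpl39 to 0.010 with median-ratio scaling, Rpl22l1 to -0.0088 with the outside scaling, Rpl11 to -0.018 and Rps24 to -0.015 under quantile normalization, Rps24 to -0.049 on its most abundant transcript and Rpl13a-ps1 to -0.013 with the covariate. Leaving out each library in turn gave -0.085 to 0.026 for Rpl39, -0.080 to 0.092 for Rpl22l1, -0.036 to 0.34 for Rps2-ps6 and -0.34 to 0.095 for Rps27. The causes were not tested. With the replicate number as a replicate block, 18 members were higher (5.74% of all genes), the smallest adjusted p being 0.148. Deviations of same-numbered libraries correlated at 0.215, 0.108 and 0.089, and every library correlated best with its own number, but the third value is too low to treat the numbers as pairs. Depth is unknown, which limits the low members most.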
